A study of Mus musculus with 117 samples.

Results

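This account covers the chemokine ligand genes of the mouse, read on arrays of sorted normal cells and of tumours. A gene was taken when its symbol, in the platform annotation, began with Ccl, Cxcl, Cx3cl or Xcl followed by a number and at most 1 letter. Probe sets that named a single gene were kept, and a gene with several sets was read from the set of highest mean across the 117 arrays. This gave 34 of the 17097 genes measured, from 49 probe sets, and 11 of the 34 had more than 1 probe set. On the RefSeq assembly GRCm38.p6, 12 of the genes lie on chromosome 11 and 9 on chromosome 5. Levels are log2 array signals as deposited, so a difference of 1 is a doubling, and a level is compared only with other levels of the same probe set.

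Chemokines are small secreted proteins, or membrane-bound ones such as Cx3cl1 and Cxcl16, that direct leukocytes along gradients through G protein-coupled receptors. They are grouped by the spacing of their first cysteines into CC, CXC, CX3C and XC families. Some are made constantly by epithelium or stroma and keep leukocytes in place, as Cxcl12, Ccl21 and Ccl25 do, while others are switched on in macrophages, endothelium or epithelium by microbial products, tissue injury or interferons, as Cxcl1, Ccl2 and Cxcl10 are.

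All samples came from C57BL/6 mice, and the series describes them as comparing tumours of conditional Prom1 mutants with normal cells. The genotype of each tumour is not in the labels. Tumours were frozen whole, whereas normal tissues were dissociated and separated with anti-Prom1 magnetic beads, so that handling and tumour state cannot be told apart. There were 3 Prom1-positive and 5 Prom1-negative samples from prostate and from intestine each, 3 positive and 7 negative from lung, 4 positive and 7 negative from liver, 3 positive and 4 negative from stomach, and 4 positive and 3 negative from uterus. The 66 tumours were adenocarcinomas of stomach (11), prostate (10) and uterus (9), bronchial papillary adenomas (14), hepatocellular carcinomas (13), skin squamous cell carcinomas (6) and B-cell lymphomas (3). Whether replicate samples were taken from different mice is not in the labels. The p-values therefore measure the spread between samples, which may be technical, and the number of arrays limits their precision.

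Array medians lay between 3.63 and 4.01, and a level near that value can be background, in which case the difference understates the change. The Prom1 transcript was higher in positive cells in 3 of 6 tissues, prostate, stomach and uterus. In lung it stood at 6.55 to 6.57 in cells labelled positive and 5.92 to 7.37 in cells labelled negative, and in liver at 2.56 to 4.14 in cells labelled positive and 2.53 to 3.41 in cells labelled negative, and it was not called in intestine, lung or liver, where the sort is known from the labels alone. Marker genes of the uterus averaged 4.57 (3.13 to 6.28) in uterine adenocarcinomas. In normal uterine cells they averaged 5.91 (5.64 to 6.11) in positive and 6.56 (6.35 to 6.68) in negative samples, and the tumour range overlapped with that of positive cells. Prostate markers ranged from 4.35 to 11.18 over the prostatic adenocarcinomas, against 12.3 to 12.77 in positive and 11.8 to 12.26 in negative prostate cells. In gastric adenocarcinomas the stomach markers averaged 6.15 (3.47 to 9.41), against 12.18 (11.31 to 12.89) in positive and 12.56 (11.96 to 12.88) in negative stomach cells. The lymphomas held 5 of 6 B cell markers above the array median, at a mean of 7.38 (7.36 to 7.38), together with 9 of 11 T and NK cell markers, at 6.92 (6.08 to 7.49). Pax5, a transcription factor of B cells, stayed under the median of each lymphoma array. Another tissue's markers averaged above a cut of 9 in 3 arrays: liver markers in uterine adenocarcinoma 6 (mean 12.1), stomach markers in intestine Prom1-negative sample 2 (11.1) and lung markers in hepatocellular carcinoma 1 (9.19). Hepatocellular carcinoma 8 lay under the cut, with lung markers at 8.08 against a mean of 4.13 over its type, and was kept. Without the 3 arrays above the cut, the counts of chemokine genes called below stayed as given, except for 6 in place of 8 in sorted lung cells and 10 in place of 11 in liver tumours. Liver Prom1-positive sample 2 also stood apart, with macrophage markers at a mean of 10.18, against 7.32 to 7.88 in the other 3 positive liver samples.

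Of the 34 genes, 24 had a promoter sequence in RefSeq (assembly GRCm38.p6), taken as the 250 bases before the annotated start. The pair Cxcl1 and Cxcl2 and the pair Cxcl9 and Cxcl10 are shown because each pair lies on chromosome 5 and is described together in the results. Capitals mark matches on either strand to GGGNNTTTC, most of a site of the kind bound by NF-kB, or to TTTCNNTTT, most of an element of the kind bound by interferon-activated factors.
Cxcl1, chr5:90890995-90891244, plus strand: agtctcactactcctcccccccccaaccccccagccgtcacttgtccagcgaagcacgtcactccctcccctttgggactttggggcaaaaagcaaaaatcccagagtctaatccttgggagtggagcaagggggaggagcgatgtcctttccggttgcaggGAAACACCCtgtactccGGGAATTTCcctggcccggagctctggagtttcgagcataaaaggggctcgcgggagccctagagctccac
Cxcl2, chr5:90903649-90903898, plus strand: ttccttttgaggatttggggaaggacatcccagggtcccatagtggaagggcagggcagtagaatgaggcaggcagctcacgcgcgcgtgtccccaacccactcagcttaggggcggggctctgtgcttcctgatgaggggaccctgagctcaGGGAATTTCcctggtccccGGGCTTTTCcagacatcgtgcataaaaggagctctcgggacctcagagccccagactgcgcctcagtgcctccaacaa
Cxcl9, chr5:92328080-92328329, minus strand: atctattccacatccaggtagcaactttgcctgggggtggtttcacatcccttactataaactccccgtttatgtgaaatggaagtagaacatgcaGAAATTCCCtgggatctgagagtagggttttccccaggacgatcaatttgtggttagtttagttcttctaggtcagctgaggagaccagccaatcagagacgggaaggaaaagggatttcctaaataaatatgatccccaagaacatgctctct
Cxcl10, chr5:92348890-92349139, minus strand: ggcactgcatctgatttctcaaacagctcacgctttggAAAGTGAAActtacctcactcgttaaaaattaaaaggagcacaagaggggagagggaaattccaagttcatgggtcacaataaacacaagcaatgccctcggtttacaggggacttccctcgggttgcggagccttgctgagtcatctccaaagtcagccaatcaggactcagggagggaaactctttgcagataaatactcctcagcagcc
The Cxcl1 window held 2 matches to GGGNNTTTC, at bases -88 to -80 and -71 to -63 from the start, and the Cxcl2 window held 2, at -97 to -89 and -78 to -70. The Cxcl9 window held 1, at -154 to -146. This motif was in 6 of the 24 windows, those of Cxcl1, Cxcl2, Cxcl9, Ccl9, Ccl20 and Xcl1, against 3.79% of 27025 genes with such a window. In the Cxcl10 window 1 match to TTTCNNTTT lay at -212 to -204, and the windows of Ccl19, Ccl28 and Cxcl14 also held that motif, against 9.52% of all genes. No match to one motif overlapped a match to the other in these windows, and a match is a description of the letters, not of binding. Sites of either kind with other letters are not marked. A window without a match, such as that of Cxcl10 for GGGNNTTTC, may therefore still hold one.

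In normal cells more members were called between tissues than between sorted fractions. The same held for all genes, at 90.1% between tissues and 13.6% between fractions in the mean over tissues. All 33 members tested were called in the limma test across the 6 tissues, where 90.1% of all genes were, and Ccl1, a ligand of Ccr8, was too dim to be tested. A direction was called against the other 5 tissues for 31 members in intestine (6 higher, 25 lower, with 57.3% of all genes called, 29.6% higher and 27.7% lower) and for 28 in stomach (2 higher, 26 lower, with 50.6% of all genes called, 19.2% higher and 31.4% lower). Liver had 28 (9 higher, 19 lower, with 58.4% of all genes called, 21.3% higher and 37.1% lower), lung 28 (23 higher, 5 lower, with 53.3% of all genes called, 24.8% higher and 28.5% lower), uterus 25 (20 higher, 5 lower, with 47.8% of all genes called, 26.5% higher and 21.3% lower) and prostate 23 (17 higher, 6 lower, with 39.9% of all genes called, 23% higher and 16.9% lower). The stomach and intestine therefore stood at the low end for most members, and prostate, lung and uterus at the high end. Fewer cells of a type and less RNA per cell cannot be told apart in such bulk samples.

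**Figure D1:**
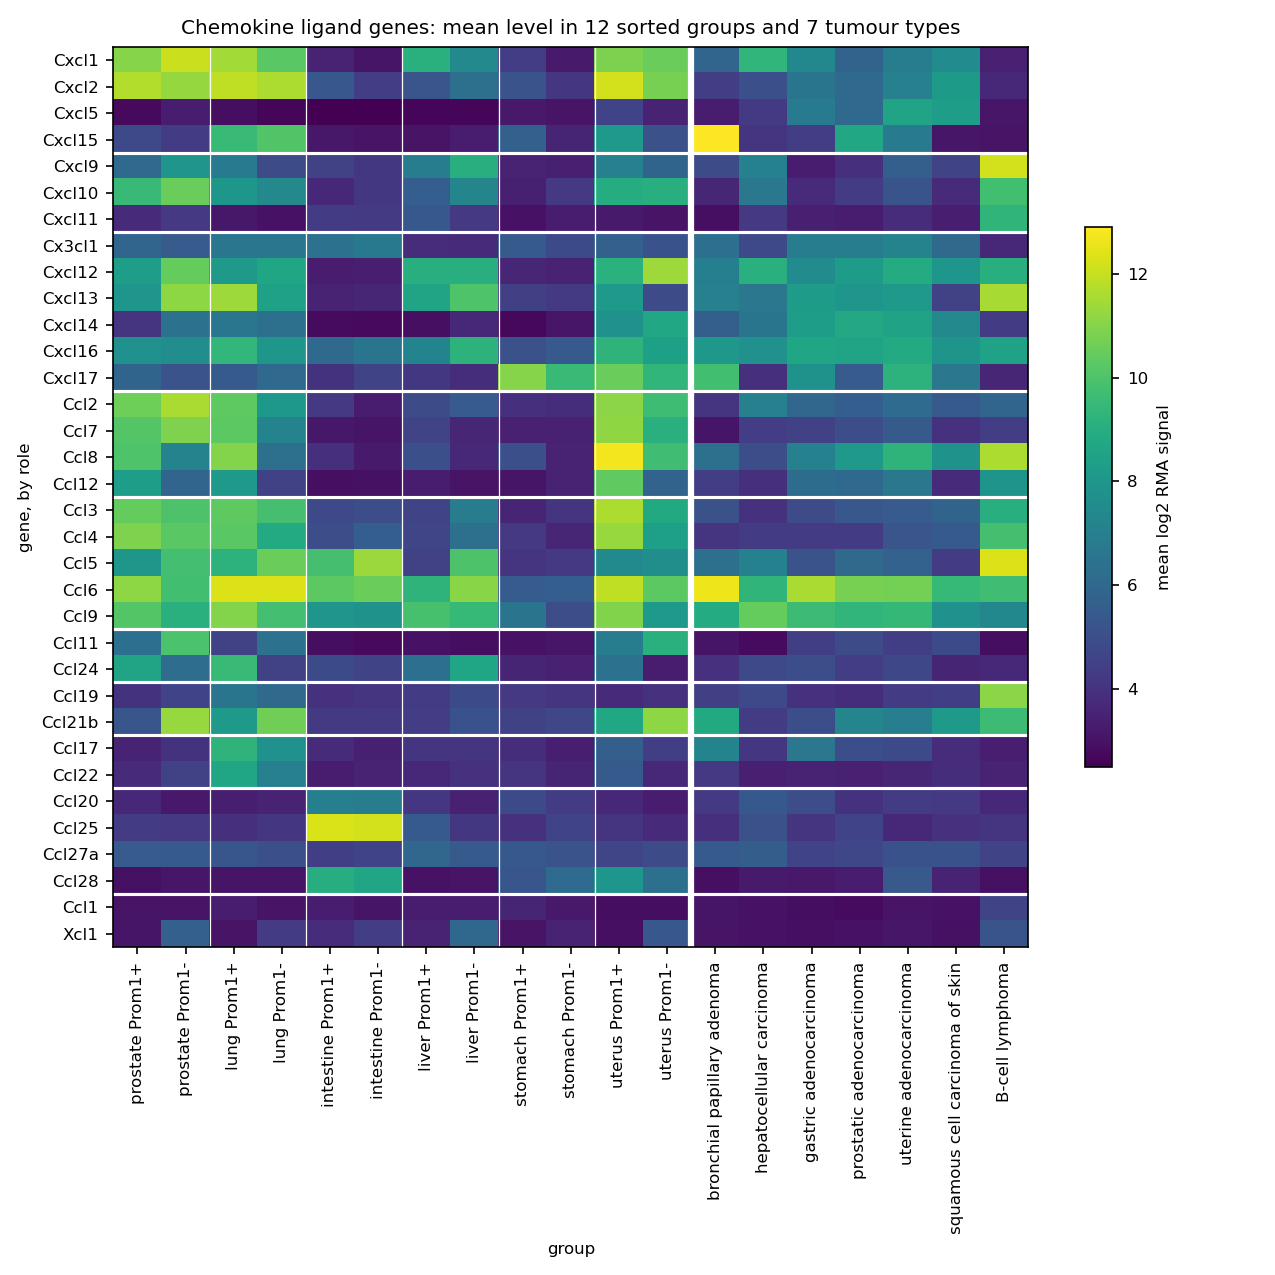
Mean log2 level of each of the 34 chemokine ligand genes (rows) in the 12 sorted groups and 7 tumour types (columns), with colour for the level and each sorted pair shown with Prom1-positive cells left of Prom1-negative cells. Ccl25 is high in both intestinal groups alone, Cxcl15 in lung cells and bronchial adenomas, and most members are low (dark) in stomach and intestine.

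Among ligands made by epithelium, Ccl25, which draws Ccr9-bearing lymphocytes to the gut, had levels of 12.45, 12.37 and 12.07 in positive and 12.6, 12.17, 12.11, 11.91 and 12.2 in negative intestinal cells, against 3.46 to 6.09 in the other sorted samples. No intestinal sample overlapped with any other tissue, and the difference was 7.99 (SE 0.16, adjusted p = 6.32e-37). Ccl20, the ligand of Ccr6, was likewise without overlap, at 6.42 to 7.28 in intestine against 2.86 to 5.19 elsewhere (difference 3.19, SE 0.16, adjusted p = 6.98e-22). Ccl28, a mucosal ligand of Ccr10 and Ccr3, was higher in intestine by 4.42 (SE 0.24), although uterine samples reached the intestinal range. Cxcl15, known as lungkine in the mouse and made by lung epithelium, lay at 8.07 to 11.66 in lung against 2.53 to 8.91 elsewhere, a difference of 5.41 (SE 0.27, adjusted p = 1.5e-20). Positive uterine cells accounted for the overlap. Cxcl17, a mucosal chemokine, was higher in stomach by 4.33 (SE 0.33) and in uterus by 3.97 (SE 0.33).

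The inducible ligands formed another pattern. Cxcl1, which recruits neutrophils through Cxcr2, had a lowest, median and highest level of 10.38, 11.95 and 12.26 in prostate, 8.87, 10.75 and 12.44 in lung and 9.81, 10.8 and 11.17 in uterus. The corresponding levels were 6.03, 7.81 and 10.74 for liver, 3.01, 3.45 and 5.29 for stomach and 2.34, 3.24 and 4.45 for intestine. The first 3 tissues thus stood above stomach and intestine without overlap, and liver overlapped with all 3 of them. Cxcl2, a close relative of Cxcl1, differed by 3.77 (SE 0.58) in prostate, 4.11 (SE 0.56) in lung and 3.78 (SE 0.60) in uterus against the other 5 tissues, and by -4.42 (SE 0.60) in stomach and -4.19 (SE 0.58) in intestine. Ccl2, which recruits monocytes through Ccr2, differed by 4.61 (SE 0.36) in prostate and 3.74 (SE 0.37) in uterus, and by -4.17 (SE 0.36) in intestine and -4.03 (SE 0.37) in stomach. A set of 7 immediate early genes, listed after the data were seen because dissociation is known to induce them, also differed between tissues: all 7 were called higher in prostate and in uterus, 3 in lung, and lower were 7 in intestine, 6 in stomach and 6 in liver. Their part in the levels of the inducible ligands was not tested.

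Ligands of dendritic cells and stroma added to these. Ccl17 and Ccl22, ligands of Ccr4 made by dendritic cells and macrophages, were higher in lung by 4.50 (SE 0.33) and 3.88 (SE 0.30). Cxcl12, the stromal ligand of Cxcr4, was higher in uterus by 3.51 (SE 0.34), and differed by -4.78 (SE 0.33) in intestine and -4.49 (SE 0.34) in stomach. Cxcl14, a chemokine of epithelium and fibroblasts, was higher in uterus by 4.11 (SE 0.42). Fibroblast markers averaged 8.35 (7.84 to 8.76) in positive and 10.11 (9.88 to 10.33) in negative uterine cells (range over samples in parentheses), against 3.74 (3.49 to 3.89) in positive and 3.91 (3.57 to 4.39) in negative intestinal cells, and their part in these levels was not tested.

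Positive and negative cells were compared to ask which transcripts accompany surface Prom1, a protein used to mark stem and progenitor cells. Averaged over the 6 tissues, 12 of the 33 members were called (7 higher and 5 lower in positive cells), against 13.6% of all genes (5.05% higher, 8.56% lower). The 7 higher members were Ccl8, Ccl12, Ccl24, Ccl9, Ccl7, Cxcl15 and Ccl20, and the 5 lower were Ccl21b, Ccl5, Xcl1, Ccl11 and Cxcl12. The median difference was 0.16 over the 33 members and 0.02 over all genes tested. The difference between positive and negative cells itself varied with the tissue for 15 members, by the tissue by sort interaction, which called 21.2% of all genes.

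By tissue, 14 members were called in uterus (10 higher, 4 lower), where 10.9% of all genes were (5.31% higher, 5.64% lower). In lung 8 were called (6 higher, 2 lower), against 1.51% of all genes (0.391% higher, 1.11% lower). This count was 13 without the lung sample labelled Prom1-positive 1, 3 without positive 2 and 5 without positive 4. In prostate 8 were called (1 higher, 7 lower), against 9.19% (3.21% higher, 5.98% lower), with 5 left without positive sample 2 and 4 without positive sample 3. In liver 12 were called (4 higher, 8 lower), against 20.7% (4.2% higher, 16.5% lower), with 16 without positive sample 2, which stood apart, and 5 without either positive sample 3 or positive sample 4. The upper quartile of array signal was 5.96 to 6.02 in positive and 6.08 to 6.41 in negative liver samples. Array signal and the sort therefore cannot be told apart in liver. Stomach had 1 call against 3.17% of all genes (2.29% higher, 0.888% lower). Intestine had none, where limma called 0.199% of all genes (0% higher, 0.199% lower), and 1 of the 33 members, Ccl5, had an unadjusted p under 0.05.

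**Figure D2:**
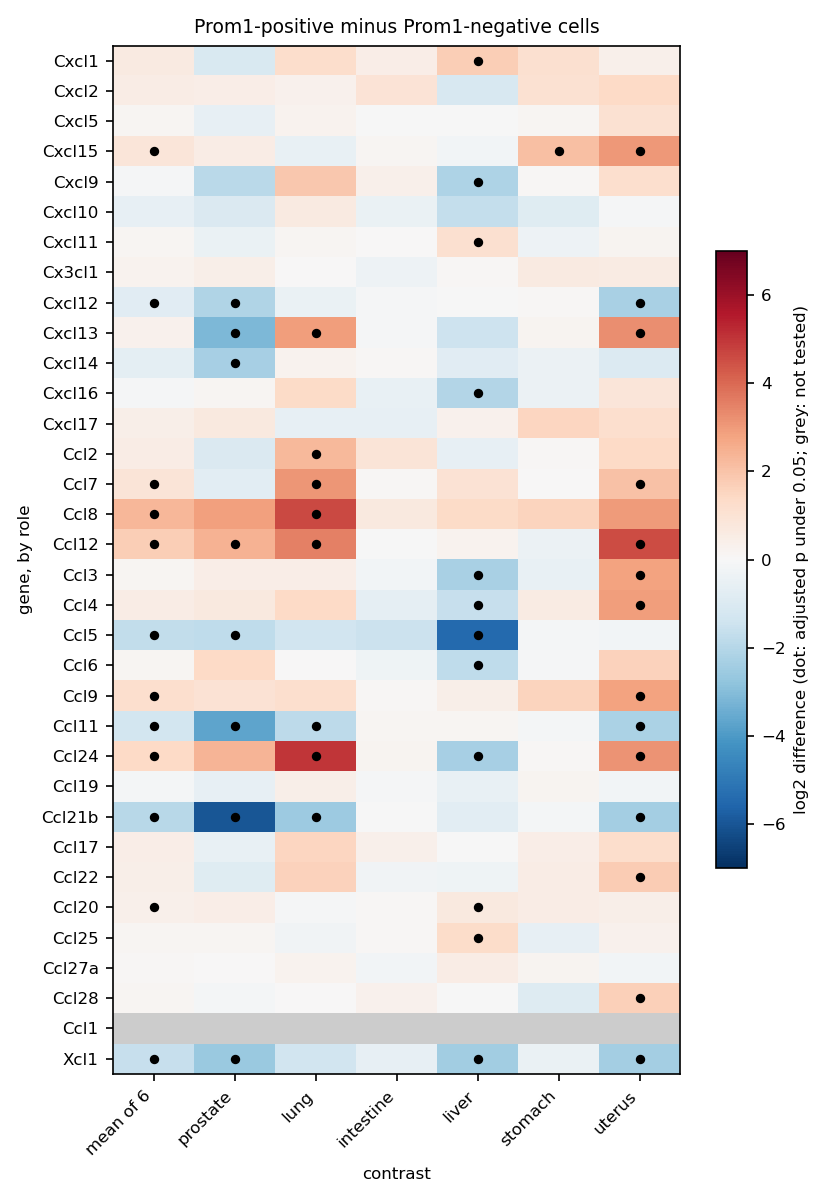
Log2 difference of each chemokine ligand gene, Prom1-positive minus Prom1-negative, in the 6 tissues and in their mean, with dots for adjusted p under 0.05 and grey for Ccl1, which was not tested. Uterus and lung carry most of the higher calls and prostate and liver most of the lower ones.

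The CC ligands listed as monocyte-attracting, Ccl2, Ccl7, Ccl8 and Ccl12, were the group with the most higher calls. These were 4 of 4 in lung, 2 of 4 in uterus and 1 of 4 in prostate. Ccl8 had levels of 10.24, 12.31 and 10.36 in lung cells labelled positive, and a lowest, median and highest level of 3.91, 7.01 and 7.51 in those labelled negative. The groups did not overlap, and the difference was 4.65 (SE 0.96, adjusted p = 0.0038). Ccl8 in uterus had levels of 12.8, 12.79, 13.14 and 12.08 in positive and 10.02, 9.85 and 9.27 in negative cells, a difference of 2.99 (SE 1.07, adjusted p = 0.0629) that missed the threshold although the groups did not overlap. Averaged over tissues the difference was 2.35 (SE 0.41, adjusted p = 5.74e-05).

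Ccl12, another monocyte attractant, stood at 10.52, 10.58, 10.62 and 9.74 in positive uterine cells, against 6.3, 5.79 and 5.34 in negative ones. All 4 positive samples lay above all 3 negative samples, by 4.56 (SE 0.68, adjusted p = 4.21e-06). The lung samples labelled positive had 6.59, 10.24 and 7.42, against a lowest, median and highest of 3.19, 4.86 and 5.45 in negative ones (difference 3.53, SE 0.61, adjusted p = 0.000386), again with no overlap. Prostate had 7.68, 7.55 and 9.76 in positive cells and 4.0, 5.36, 6.91, 4.95 and 8.27 in negative cells. There the groups overlapped, and the difference was 2.43 (SE 0.65, adjusted p = 0.0105). Positive lung sample 2 was the highest for both genes, and without it Ccl8 and Ccl12 missed the threshold in lung (adjusted p = 0.0741 and 0.05004). Likewise, Ccl12 in prostate missed it without positive sample 3 (adjusted p = 0.163).

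Ccl7 in lung was 9.05, 11.32 and 10.47 in cells labelled positive, against a lowest, median and highest of 5.0, 7.12 and 8.18 in those labelled negative. Its groups did not overlap, with a difference of 3.12 (SE 0.59, adjusted p = 0.00112). Ccl2 in the same lung samples was 9.02, 11.2 and 10.75, against 6.07, 8.31 and 9.0 as lowest, median and highest in negative ones (difference 2.29, SE 0.63, adjusted p = 0.0454), and the lowest positive sample was just above the highest negative one. Macrophage and monocyte markers, of which 10 of 10 were above the array median in these groups, averaged 10.56 (9.5 to 11.48) in positive and 9.1 (8.45 to 9.46) in negative lung cells, and 11.42 (11.17 to 11.7) in positive and 8.07 (7.88 to 8.38) in negative uterine cells. The resident macrophage markers averaged 8.68 (7.21 to 9.48) in positive and 4.88 (4.04 to 5.47) in negative lung cells, and 6.93 (6.06 to 8.04) in positive and 3.28 (3.12 to 3.59) in negative uterine cells. They moved with these ligands in both tissues, and their part in the differences was not tested.

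**Figure D3:**
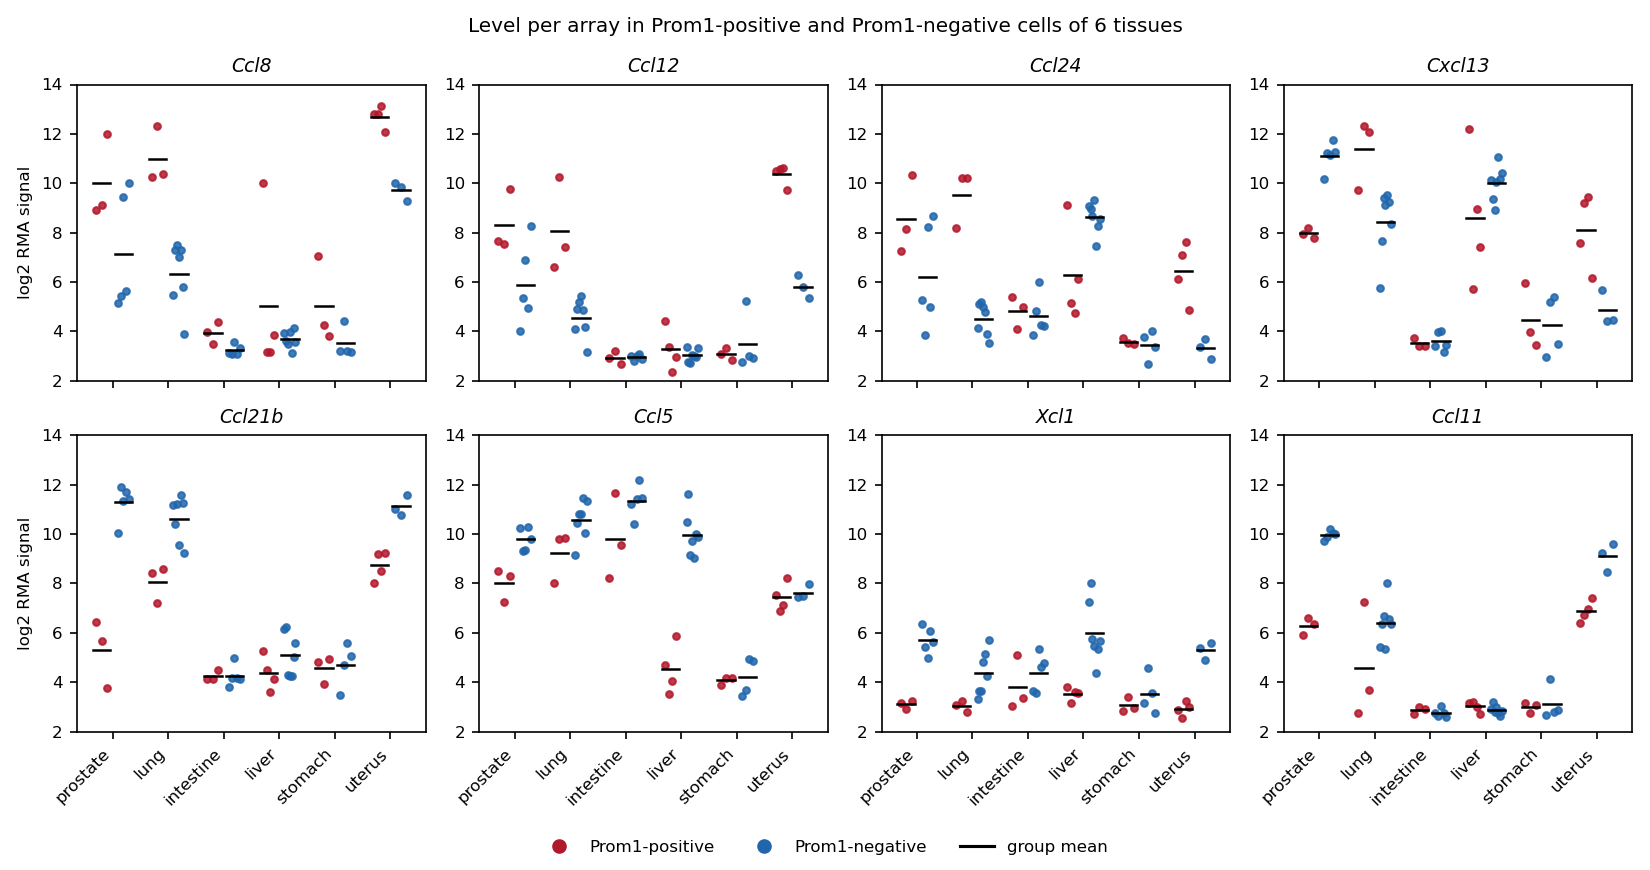
Log2 level of 8 chemokine ligand genes in each sorted array, by tissue, with Prom1-positive cells left of Prom1-negative cells in each pair and a bar at the mean. Ccl8, Ccl12 and Ccl24 separate the groups of lung, Ccl21b and Ccl11 those of prostate and uterus, and Ccl5 and Xcl1 those of liver.

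Ccl3 and Ccl4 were higher in positive cells in uterus and lower in liver. In uterus the differences were 2.81 (SE 0.82) for Ccl3 and 2.91 (SE 0.71) for Ccl4, and Ccl9 rose by 2.83 (SE 0.56). Ccl4, an attractant of monocytes and T cells, had levels of 11.66, 11.27, 11.69 and 10.56 in positive and 8.13, 9.28 and 7.75 in negative uterine cells. The groups did not overlap (adjusted p = 0.00372). In liver Ccl3, Ccl4, Ccl5 and Ccl6 fell. Ccl3, made by activated macrophages and lymphocytes, was at 8.26, 3.59, 3.38 and 3.27 in positive liver cells, against a lowest, median and highest of 5.45, 6.39 and 8.65 in negative ones. Positive sample 2 alone lay within the negative range, and the difference was -2.27 (SE 0.67, adjusted p = 0.0123). Without that sample it was -3.48 (adjusted p = 1.28e-05), and without positive sample 3, 4 or 5 it missed the threshold (adjusted p = 0.0867, 0.088 and 0.0924). For Ccl3 and Ccl4 the tissue by sort interaction had adjusted p = 0.0105 and 0.00338. Macrophage markers, above the array median for 10 of 10 genes, were the lower in positive liver cells, at 8.25 (7.32 to 10.18) against 10.67 (10.29 to 11.05) in negative ones, and their part was not tested.

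Ccl5, which T and NK cells produce and which attracts T cells and monocytes, was the most lowered member in liver. Levels were 4.68, 3.5, 4.06 and 5.88 in positive liver cells, against a lowest, median and highest of 9.03, 9.89 and 11.63 in negative ones. More than 3 units separated the nearest samples of these groups, and the difference was -5.45 (SE 0.49, adjusted p = 2.2e-10). Prostate had 8.48, 7.26 and 8.31 in positive cells and 10.24, 9.3, 9.34, 10.28 and 9.81 in negative cells (-1.78, SE 0.58, adjusted p = 0.0411), also with no overlap. As a mean over tissues Ccl5 differed by -1.74 (SE 0.23, adjusted p = 5.05e-07).

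Xcl1, or lymphotactin, is made by the same lymphocytes and attracts cross-presenting dendritic cells. It stood at 3.82, 3.16, 3.59 and 3.56 in positive liver cells, against a lowest, median and highest of 4.39, 5.65 and 8.0 in negative ones, a difference of -2.44 (SE 0.46, adjusted p = 0.000142). In prostate it stood at 3.15, 2.91 and 3.25 in positive and 6.35, 5.43, 4.97, 6.09 and 5.62 in negative cells (-2.59, SE 0.54, adjusted p = 0.000694). Positive uterine cells had 2.87, 2.56, 3.24 and 3.01, against 5.4, 4.91 and 5.6 in negative cells (-2.38, SE 0.56, adjusted p = 0.00283). None of these 3 pairs of groups overlapped, the positive samples lay near or under the array median, and the mean difference over tissues was -1.63 (SE 0.22, adjusted p = 5.24e-07). T and NK cell markers averaged 3.55 (3.48 to 3.63) in positive and 6.1 (5.53 to 7.27) in negative liver cells, with 2 and 10 of 11 above the array median. In prostate they averaged 3.37 (3.18 to 3.54) in positive and 5.38 (4.99 to 6.05) in negative cells, and in uterus 3.22 (3.19 to 3.25) in positive and 4.52 (4.32 to 4.67) in negative cells. These markers were lower in positive cells wherever Ccl5 or Xcl1 was called. They were also lower in lung, where neither gene was called, at 3.82 (3.61 to 4.22) in positive and 6.3 (5.05 to 7.58) in negative cells. Neither gene was called in intestine or stomach. There the markers averaged 5.6 (4.78 to 6.77) in positive and 6.82 (6.09 to 7.66) in negative intestinal cells. In stomach they averaged 3.61 (3.35 to 3.86) in positive and 3.71 (3.3 to 4.13) in negative cells, and both pairs overlapped. The part of these markers in the calls was not tested.

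Of the eotaxins, ligands of the eosinophil receptor Ccr3, Ccl24 and Ccl11 moved in opposite directions. Ccl24, made by macrophages and epithelium, had levels of 8.19, 10.23 and 10.22 in lung cells labelled positive and a lowest, median and highest of 3.53, 4.77 and 5.18 in those labelled negative. Each positive sample was at least 3 units above each negative sample, and the difference was 5.03 (SE 0.76, adjusted p = 4.54e-05). Uterus had 6.13, 7.09, 7.61 and 4.88 in positive and 3.38, 3.68 and 2.88 in negative cells (3.12, SE 0.84, adjusted p = 0.00925), also apart. Liver went the other way, with 9.13, 5.15, 4.76 and 6.12 in positive cells against a lowest, median and highest of 7.47, 8.68 and 9.33 in negative ones (-2.33, SE 0.69, adjusted p = 0.0122). That call was lost without positive liver sample 3 or 4 (adjusted p = 0.0904 and 0.102). The interaction with tissue had adjusted p = 1.08e-05.

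Ccl11, made by fibroblasts and epithelium, stood at 5.91, 6.62 and 6.36 in positive prostate cells, against 9.72, 9.9, 10.21, 10.03 and 9.99 in negative ones. A gap of about 3 units separated the groups, whose difference was -3.67, SE 0.500, adjusted p = 4.66e-07. In uterus it stood at 6.41, 6.7, 6.98 and 7.41 in positive and 9.24, 8.48 and 9.59 in negative cells (-2.23, SE 0.52, adjusted p = 0.0026), with no overlap. Lung overlapped, at 2.75, 7.24 and 3.69 in positive cells and 5.36 to 8.03 in negative cells (-1.84, SE 0.47, adjusted p = 0.0282).

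Ccl21b, the lymphatic and lymph node ligand of Ccr7, had the largest fall of any member in a sorted tissue. Its probe set can also read near-identical Ccl21 copies. The positive prostate cells had 6.46, 5.66 and 3.78, against 10.04, 11.89, 11.34, 11.71 and 11.43 in negative prostate cells. The groups lay more than 3 units apart, with a difference of -5.98 (SE 0.55, adjusted p = 4.37e-11). In lung the levels were 8.44, 7.2 and 8.59 in cells labelled positive and 9.21 to 11.58 in those labelled negative (-2.55, SE 0.52, adjusted p = 0.00288). Uterine levels were 8.02, 9.18, 8.52 and 9.23 in positive and 11.03, 10.76 and 11.57 in negative cells (-2.39, SE 0.57, adjusted p = 0.00323). Neither pair overlapped, and over the 6 tissues the difference was -1.97 (SE 0.22, adjusted p = 1.08e-08). Lymphatic endothelial markers averaged 5.24 (5.05 to 5.39) in positive and 6.31 (5.62 to 6.65) in negative prostate cells, with 2 of 4 above the array median in each. In lung they averaged 5.94 (5.78 to 6.08) in positive and 6.09 (4.99 to 6.52) in negative cells. In uterus they averaged 5.81 (5.46 to 6.41) and 6.2 (5.9 to 6.38), and both pairs overlapped. Fibroblast markers averaged 6.09 (5.28 to 7.19) in positive and 8.46 (7.41 to 8.82) in negative prostate cells. The part of either list in the falls of Ccl21b and Ccl11 was not tested.

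Cxcl12, a stromal ligand, was at 8.69, 7.57 and 8.71 in positive and 9.28, 10.91, 10.62, 10.73 and 10.71 in negative prostate cells, a difference of -2.13, SE 0.596, adjusted p = 0.0153. In uterus it was at 8.35, 9.42, 9.75 and 8.98 in positive and 11.56, 11.51 and 11.11 in negative cells (-2.27, SE 0.62, adjusted p = 0.0108). Both pairs of groups were apart. The mean over tissues was -0.81 (SE 0.24, adjusted p = 0.0188). Cxcl12 has 2 other probe sets, and neither was called in the mean over tissues (adjusted p = 0.375 and 0.362), in prostate (-2.26, adjusted p = 0.0676, and 0.06, adjusted p = 0.918) or in uterus (-1.38, adjusted p = 0.39, and 0.06, adjusted p = 0.973). The second of them lay under the array medians, at a mean of 3.17.

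Cxcl13, which draws B cells through Cxcr5, differed with the tissue (interaction adjusted p = 0.000224). Positive prostate cells had 7.93, 8.2 and 7.8, against 10.17, 11.23, 11.15, 11.75 and 11.27 in negative ones, a difference of -3.14 (SE 0.85, adjusted p = 0.0119). In lung the cells labelled positive had 9.72, 12.33 and 12.08, against a lowest, median and highest of 5.77, 9.12 and 9.52 in those labelled negative (2.94, SE 0.81, adjusted p = 0.0468). Uterus had 7.59, 9.21, 9.44 and 6.18 in positive and 5.69, 4.42 and 4.47 in negative cells (3.25, SE 0.89, adjusted p = 0.0108). In these tissues the groups were apart, lower in positive prostate cells and higher in positive lung and uterine cells. Single samples decided some of these calls: without prostate positive 3, uterus positive 3 or uterus negative 2 the adjusted p was 0.0521, 0.0512 and 0.0641. In lung the call was lost without any of positive 2 or 4 or negative 1, 2 or 7 (adjusted p between 0.0693 and 0.354), and the other probe set missed the threshold (2.64, adjusted p = 0.0573).

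Cxcl15 was the member called in stomach. Its levels there were 5.15, 5.85 and 6.09 in positive and 3.37, 3.25, 3.77 and 3.89 in negative cells, which did not overlap (2.13, SE 0.55, adjusted p = 0.0185). The call was lost without positive stomach sample 2 or 3 (adjusted p = 0.0858 and 0.0976), and the other probe set of the gene was not called (1.16, adjusted p = 0.297). In uterus the levels were 8.91, 7.33, 7.22 and 8.91 in positive and 4.73, 4.3 and 6.15 in negative cells (3.03, SE 0.55, adjusted p = 0.000102), also apart. Its neutrophil-attracting relatives Cxcl1, Cxcl2 and Cxcl5 were not called in the mean over tissues. Cxcl1 was called in liver alone, at 9.42, 10.74, 8.91 and 7.33 in positive cells and 6.03, 7.49 and 8.93 as lowest, median and highest in negative cells. These groups overlapped, and the difference was 1.72 (SE 0.51, adjusted p = 0.0129). Epithelial markers averaged 10.67 (10.04 to 11.16) in positive and 9.58 (9.02 to 10.59) in negative uterine cells, and 10.35 (10.09 to 10.5) in positive and 9.71 (8.96 to 10.28) in negative stomach cells, and their part in the Cxcl15 differences was not tested.

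The interferon-induced ligands of Cxcr3 were mostly outside the calls. Of Cxcl9, Cxcl10 and Cxcl11, none was called in the mean (differences -0.08, -0.57 and 0.12, adjusted p = 0.873, 0.216 and 0.694), and 2 were called in liver. Cxcl9 there had levels of 8.42, 5.93, 4.94 and 8.32 in positive cells and a lowest, median and highest of 7.89, 8.96 and 10.32 in negative ones (-2.15, SE 0.57, adjusted p = 0.00519), a call lost without positive sample 4 (adjusted p = 0.0862). Cxcl11 was higher there by 1.11 (SE 0.35). Among the 4 epithelial CC ligands, Ccl25 in liver was at 4.05, 5.82, 5.89 and 6.09 in positive and 3.82 to 4.48 in negative cells (1.29, SE 0.26, adjusted p = 0.000261), and 3 of the 4 positive samples were above all negative ones. The other, dimmer Ccl25 probe set differed by 0.15 (adjusted p = 0.744).

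The tumours were compared with one another to ask how far chemokine expression depends on the tumour type. In the limma test across the 7 types, 32 of the 34 members were called, against 95.1% of all genes. The members not called were Ccl20 (adjusted p = 0.231) and Ccl24 (adjusted p = 0.105). Against the mean of the other 6 types, lymphoma had 22 calls, 13 higher and 9 lower (46.6% of all genes called, 24.3% higher and 22.3% lower). Calls numbered 25 in hepatocellular carcinoma, 9 higher and 16 lower (66.3% of all genes called, 25% higher and 41.3% lower), and 22 in bronchial adenoma, 7 higher and 15 lower (58.1% of all genes called, 23.9% higher and 34.1% lower). Gastric adenocarcinoma had 17, of which 4 were higher and 13 lower (47.9% of all genes called, 23.8% higher and 24.1% lower). Uterine adenocarcinoma had 13 (10 higher and 3 lower, 29.8% of all genes called, 17.3% higher and 12.5% lower) and squamous carcinoma 13 (2 higher and 11 lower, 41.7% of all genes called, 19.2% higher and 22.5% lower). Prostatic adenocarcinoma had 11 (4 higher and 7 lower, 41.8% of all genes called, 22.1% higher and 19.6% lower).

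In the lymphomas all 3 interferon-induced ligands of Cxcr3 were higher than in the other tumour types. Cxcl9, the interferon-gamma-induced ligand of Cxcr3, had levels of 11.89, 12.12 and 12.55 in the 3 lymphomas, against 2.67 to 10.1 in the other tumours. No other tumour reached them, and the difference was 7.28 (SE 1.02, adjusted p = 1.81e-08). Cxcl11 stood at 8.83, 9.03 and 9.997, against 2.54 to 5.97 in the other tumours (5.77, SE 0.499, adjusted p = 2.27e-15), also apart. For Cxcl10 the levels were 8.94, 9.47 and 10.8, against 2.49 to 9.23 in the other tumours, which overlapped (5.18, SE 0.68, adjusted p = 3.35e-09).

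Ccl19, a ligand of Ccr7 made by stroma and dendritic cells of lymphoid tissue, was at 10.79, 10.88 and 11.61 in lymphomas and 3.45 to 5.72 in the other tumours. The gap of about 5 units was the widest among the members without overlap, and the difference was 6.79 (SE 0.28, adjusted p = 1.32e-30). Ccl5 was at 12.09, 12.46 and 12.47 in lymphomas against 3.77 to 9.84 in the others (6.54, SE 0.65, adjusted p = 3.77e-13), and Ccl4 was also apart (difference 5.19, SE 0.37). Ccl8 was at 11.25, 12.57 and 11.03 in lymphomas and reached 11.74 in the others, which overlapped (4.35, SE 0.94). Cxcl13 overlapped as well, at 11.62, 12.13 and 10.85 in lymphomas and up to 10.96 in the others (4.46, SE 1.18). The lower members in lymphoma were ligands of epithelium and neutrophils, among them Cxcl1 (-3.69, SE 0.80), Cxcl15 (-3.60, SE 0.97), Cxcl17 (-3.51, SE 1.19), Cxcl14 (-3.20, SE 0.88), Cxcl5 (-3.11, SE 0.98) and Cx3cl1 (-2.71, SE 0.41). T and NK cell markers averaged 6.92 in lymphomas and 3.09 to 3.74 in the other tumour types, and epithelial markers 3.25 (3.02 to 3.38) in lymphomas with 1 of 7 above the array median. Their part in these differences was not tested.

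**Figure D4:**
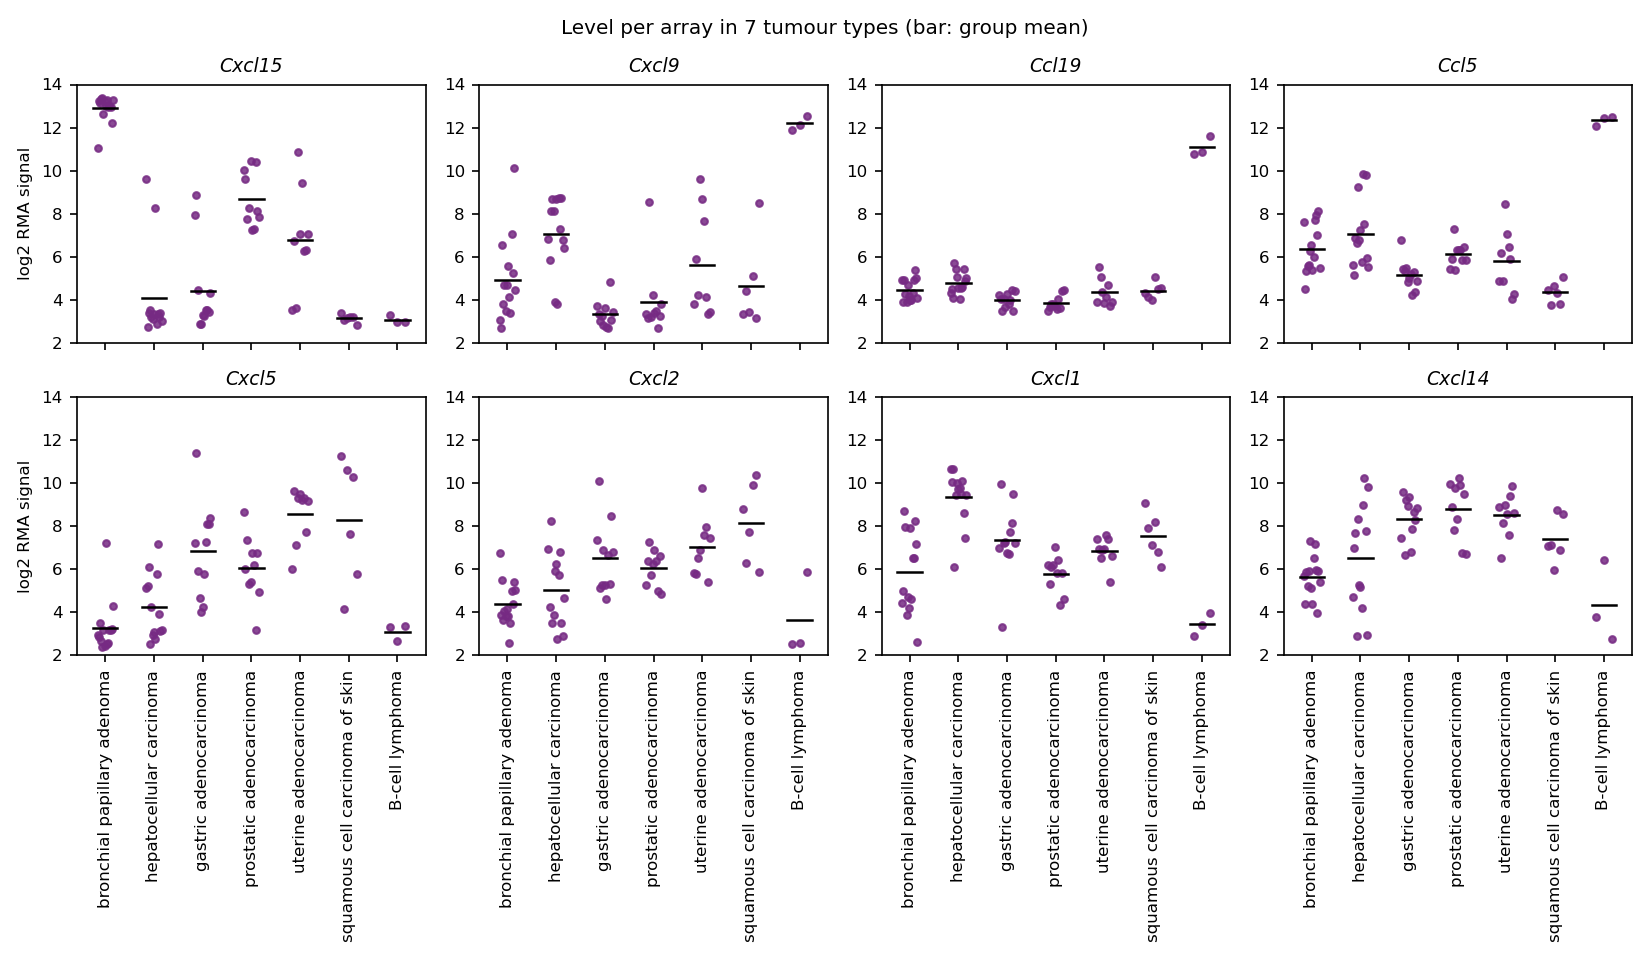
Log2 level of 8 chemokine ligand genes in each tumour array, by tumour type, with a bar at the mean. The 3 lymphomas lie above all other tumours for Cxcl9, Ccl19 and Ccl5, and the 14 bronchial adenomas above all others for Cxcl15.

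Cxcl15 separated the bronchial papillary adenomas, with a lowest, median and highest level of 11.03, 13.09 and 13.36, against 2.74 to 10.85 in the other tumours. All 14 adenomas were above all others (7.88, SE 0.51, adjusted p = 5.63e-21). The prostatic adenocarcinomas came next, at 7.26, 8.2 and 10.43, and were higher than the mean of the other types by 2.97 (SE 0.57, adjusted p = 2.47e-05). Hepatocellular carcinoma 1, whose array carried lung markers, was the highest of its type at 9.62. Cxcl17 was higher in bronchial adenomas by 3.64 (SE 0.62) and in uterine adenocarcinomas by 3.01 (SE 0.74), with a range of 4.61 to 12.12 among the 9 uterine tumours.

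Of the Cxcr2 ligands, Cxcl1 was high in hepatocellular carcinomas, at 6.08, 9.74 and 10.68 as lowest, median and highest, against 2.62 to 9.97 in the other tumours. The types overlapped, and the difference was 3.21 (SE 0.43, adjusted p = 2.21e-09). Cxcl5, induced in epithelium, was higher in uterine adenocarcinomas, at 6.01, 9.22 and 9.64, by 3.25 (SE 0.61, adjusted p = 3.29e-05). Squamous carcinomas of the skin had 4.17, 8.96 and 11.29 for Cxcl5 (2.94, SE 0.72, adjusted p = 0.000697) and 5.88, 8.27 and 10.37 for Cxcl2 (2.71, SE 0.62, adjusted p = 0.000271). Levels within the skin tumours spanned more than 4 units for both genes. Neutrophil markers averaged 6.85 (6.6 to 7.27) in skin and 7.13 (4.98 to 8.91) in uterine tumours. The other carcinoma and adenoma types averaged 4.99 to 6.07. In lymphomas, where Cxcl1 and Cxcl5 were lower, these markers averaged 6.88 (5.67 to 8.4). Their part was not tested.

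Each tumour type was also set against the sorted cells of its organ, positive and negative weighted equally. Averaged over the 5 organs, 26 of the 34 members were called, 9 higher and 17 lower in tumours, against 65.8% of all genes (39% higher, 26.8% lower). The median difference of the members was -0.29, against 0.08 over all genes. The largest falls were those of Ccl4 (-3.41, SE 0.16), Cxcl2 (-3.22, SE 0.31), Ccl3 (-3.07, SE 0.22), Ccl7 (-2.90, SE 0.21), Cxcl10 (-2.67, SE 0.23), Ccl2 (-2.18, SE 0.22) and Cxcl1 (-1.98, SE 0.25), and the largest rises those of Cxcl5 (2.66, SE 0.28), Cxcl14 (2.33, SE 0.28) and Cxcl15 (1.61, SE 0.28). For Cxcl14 the other, dimmer probe set gave 0.76 in the mean (limma adjusted p = 0.000463). In lung that probe set was called lower (-1.36, limma adjusted p = 0.00421), where the one used was not called (-0.81, limma adjusted p = 0.274). The tumour difference depended on the organ for 29 members, against 77.9% of all genes. All 7 immediate early genes were lower in tumours in the mean, with a median difference of -2.82, so that the part of dissociation in the falls of inducible ligands was not tested and cannot be told apart from tumour state.

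Lung had 21 calls, 2 higher and 19 lower (43.1% of all genes called, 23.4% higher and 19.7% lower). Cxcl2 had a lowest, median and highest level of 2.57, 4.11 and 6.74 in bronchial adenomas, against 10.55, 12.51 and 12.67 in lung cells labelled positive and 10.98, 11.7 and 12.24 in those labelled negative. Every adenoma was below every normal sample, and the difference was -7.36 (SE 0.64, adjusted p = 3.2e-18). Ccl7 ran 2.48, 2.97 and 3.95 in adenomas (-5.65, SE 0.44, adjusted p = 1.23e-20), Ccl4 3.6, 4.05 and 4.55 (-5.49, SE 0.34, adjusted p = 3.3e-27), Ccl2 3.29, 3.98 and 5.36 (-5.06, SE 0.46, adjusted p = 5.52e-17) and Ccl3 3.7, 5.19 and 7.0 (-4.97, SE 0.47, adjusted p = 2.11e-16). These 4 likewise did not overlap with normal lung cells. The 2 higher members were Cxcl17 (4.01, SE 0.72), without overlap, and Cxcl15 (3.09, SE 0.59). Several marker lists moved with these differences. Macrophage markers averaged 8.5 (7.93 to 8.93) in tumours, against 10.56 (9.5 to 11.48) in positive and 9.1 (8.45 to 9.46) in negative cells. Endothelial markers averaged 7.24 (6.3 to 9.0) in tumours, against 9.54 (8.31 to 10.95) in positive and 9.61 (6.6 to 10.35) in negative cells. The T and NK cell markers averaged 3.74 (3.43 to 4.52) in tumours, against 3.82 (3.61 to 4.22) in positive and 6.3 (5.05 to 7.58) in negative cells. Epithelial markers were the higher in tumours, at 10.53 (9.98 to 11.04), against 6.81 (6.63 to 6.92) in positive and 7.77 (6.9 to 8.51) in negative cells. Their part in the differences was not tested.

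Prostate had 19 calls, 5 higher and 14 lower (36.7% of all genes called, 20.9% higher and 15.8% lower). Cxcl1 stood at 4.36, 5.99 and 7.02 in prostatic adenocarcinomas, against 11.26, 10.38 and 11.42 in positive and 11.99, 12.19, 12.26, 11.91 and 12.08 in negative cells. The groups were at least 3 units apart (-5.75, SE 0.57, adjusted p = 6.02e-15). Ccl4 (-6.20, SE 0.37), Cxcl10 (-5.68, SE 0.54), Ccl7 (-5.54, SE 0.49), Ccl2 (-5.48, SE 0.51), Cxcl2 (-5.42, SE 0.71) and Ccl3 (-4.87, SE 0.52) were also lower without overlap. Cxcl15 was higher without overlap, at 7.26, 8.2 and 10.43 in tumours against 3.55 to 5.32 in normal cells (4.14, SE 0.65, adjusted p = 1.55e-07), and Cxcl14 (3.55, SE 0.64) and Cxcl5 (3.01, SE 0.66) were higher with overlap. The other Cxcl14 probe set gave 2.03 (limma adjusted p = 0.000169). Macrophage markers in prostate averaged 8.16 (6.99 to 8.87) in tumours, against 9.46 (8.56 to 10.68) in positive and 8.22 (6.43 to 9.85) in negative cells, and their part was not tested.

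Uterus had 17 calls, 2 higher and 15 lower (28.8% of all genes called, 16.4% higher and 12.4% lower). Ccl4 had 4.54, 4.98 and 7.71 in uterine adenocarcinomas, against 11.66, 11.27, 11.69 and 10.56 in positive and 8.13, 9.28 and 7.75 in negative cells, with no overlap although tumour 5 came within 0.1 of the lowest normal sample (-4.58, SE 0.39, adjusted p = 5.14e-18). Ccl7 (-4.67, SE 0.51) and Cxcl2 (-4.46, SE 0.74) did not overlap, and Ccl3 (-4.73, SE 0.54) did, through the same tumour. Cxcl5 was higher, at 6.01, 9.22 and 9.64 in tumours against 7.7, 3.33, 3.51 and 3.77 in positive and 3.8, 3.84 and 2.91 in negative cells (4.51, SE 0.69, adjusted p = 9.43e-08). Positive sample 1 was the one normal sample within the tumour range. Macrophage markers in uterus averaged 8.82 (8.01 to 10.1) in tumours, against 11.42 (11.17 to 11.7) in positive and 8.07 (7.88 to 8.38) in negative cells, and their part was not tested.

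**Figure D5:**
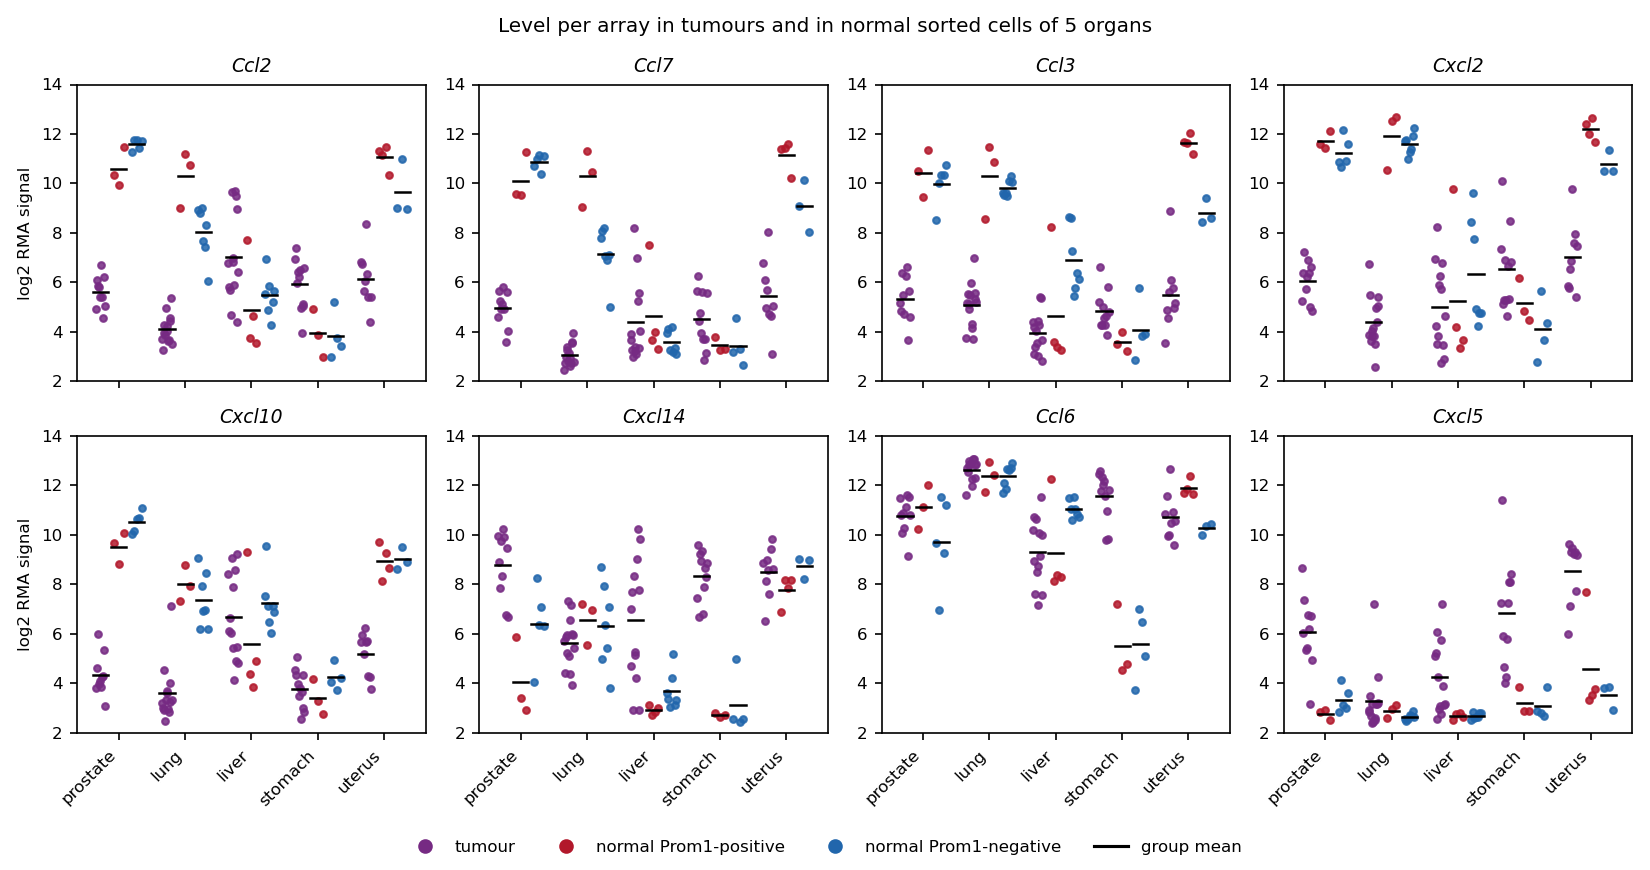
Log2 level of 8 chemokine ligand genes in each array of 5 organs, with tumours left of Prom1-positive and Prom1-negative cells and a bar at the mean. Ccl2, Ccl7, Ccl3 and Cxcl2 lie lower in the tumours of prostate, lung and uterus, and Ccl6 and Cxcl14 higher in those of stomach.

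Stomach was the organ with mostly higher members: 20 calls, 16 higher and 4 lower (58.1% of all genes called, 35% higher and 23% lower). The number of calls was 15 without the arrays of upper quartile under 6, which include normal stomach arrays of both sorts. The Prom1-negative stomach array with the lowest upper quartile of all (5.05) also had the lowest correlation with its group of all arrays (0.72). Ccl6, a macrophage and myeloid ligand of Ccr1 in rodents, had 9.78, 11.83 and 12.6 in gastric adenocarcinomas, against 7.21, 4.54 and 4.78 in positive and 3.73, 7.01, 6.5 and 5.11 in negative cells. All 11 tumours were more than 2 units above all normal samples (6.03, SE 0.48, adjusted p = 4.31e-20). Cxcl14 had 6.69, 8.65 and 9.58 in tumours, against 2.62 to 2.78 in positive and 2.45 to 5.0 in negative cells (5.41, SE 0.65, adjusted p = 6.13e-12). Its other probe set gave 2.09 (limma adjusted p = 4.88e-05). Ccl9 (3.90, SE 0.46), Cxcl5 (3.70, SE 0.66) and Cxcl16 (3.37, SE 0.33) were also higher without overlap, and Cxcl13 (3.85, SE 0.84) with overlap. For Cxcl12 the probe sets disagreed: the one used gave 3.92 (SE 0.45) without overlap, another 0.93 (adjusted p = 0.0822, not called) and the dim one -0.39 (adjusted p = 0.000616, called lower). Ccl28 (-2.49, SE 0.45) and Cxcl17 (-2.40, SE 0.80), both ligands of mucosal epithelium, fell. Macrophage markers averaged 8.54 (7.05 to 9.51) in gastric tumours, against 5.18 (4.99 to 5.34) in positive and 4.01 (3.29 to 4.58) in negative stomach cells, with 10, 8 and 3 of 10 above the array median. Fibroblast markers averaged 7.65 (7.1 to 8.1) in gastric tumours, 4.23 (3.85 to 4.6) in positive and 4.54 (3.51 to 5.61) in negative cells, and the part of either in these rises was not tested.

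Liver had 11 calls, 5 higher and 6 lower (47.2% of all genes called, 29.2% higher and 18% lower). Cxcl14 ranged 2.9, 7.0 and 10.24 in hepatocellular carcinomas, against 3.12, 2.7, 2.84 and 3.02 in positive and 3.03, 3.38 and 5.17 in negative cells (3.23, SE 0.56, adjusted p = 8.56e-07). The tumours spanned more than 7 units, and the lowest overlapped with normal cells. The other Cxcl14 probe set gave 0.90 (limma adjusted p = 0.04995). Ccl2 was higher, at 4.42, 6.79 and 9.7 in tumours against 7.71, 3.74, 4.62 and 3.54 in positive and 4.28, 5.54 and 6.94 in negative cells (1.84, SE 0.44, adjusted p = 0.000334). Cxcl13 (-2.69, SE 0.72), Ccl24 (-2.65, SE 0.49) and Ccl3 (-1.79, SE 0.45) were lower and overlapped too, and none of the 3 was called against positive cells alone (adjusted p = 0.105, 0.0666 and 0.431). Macrophage markers in liver averaged 8.48 (7.01 to 9.999) in tumours, against 8.25 (7.32 to 10.18) in positive and 10.67 (10.29 to 11.05) in negative cells, and their part was not tested. The direction of Ccl2 was thus opposite in liver to that in prostate, lung and uterus, and its tumour difference depended on the organ (interaction adjusted p = 6.83e-24).

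Across the 19 group means the pairs of members with the most alike levels were Ccl3 and Ccl4 (Pearson r = 0.978), Ccl2 and Ccl7 (0.974), and Ccl8 and Ccl12 (0.933). Both genes of each pair lie on chromosome 11. Next came Ccl7 and Cxcl2 (0.919) and Ccl2 and Cxcl2 (0.903), on different chromosomes, and Cxcl1 and Cxcl2 had r = 0.855. These values describe 19 points that share tissues and arrays, and no test was made of them. In RefSeq the spans of Ccl3 and Ccl4 overlap, and how far their probe sets read a shared transcript is not known here.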

How the data were processed

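Affymetrix arrays of 1 colour were used for 51 sorted cell samples and 66 tumours. Levels are log2 signals as deposited by the authors, made with RMA and Partek 6.6, per the submitters' processing notes; their settings, and any batch correction, are not given in the sources used here. Arrays give no read depth. The values were used without further normalization.

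Of 45141 probe sets, 28898 named 1 gene, 551 several and 15692 none. Only those with 1 gene were used, with symbols updated by Entrez identifier through a RefSeq gene table (GRCm38.p6). A gene entered a fit when its level was above the array median in at least 3 of its arrays. This left 14081 genes for the sorted cells, 13456 for the tumour types and 14663 for tumours against normal cells, with 33, 34 and 34 of the 34 chemokine genes. Differences between group means were tested two-sided by moderated statistics of limma 3.58.1 (lmFit, then eBayes; R 4.3.3), with Benjamini-Hochberg adjustment over all genes tested and a threshold of 0.05. "Called" means an adjusted p under 0.05. The fits were tested on simulated data. Figures were drawn with Python 3.11.15 and matplotlib 3.10.9.

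The chemokine genes, the lists of roles and of cell type markers, the tests and the rule for naming genes were chosen with earlier results of these data known, and the 7 immediate early genes and the 2 promoter motifs after seeing the data, the motifs being shortened by 1 letter from longer forms that had been matched first. Levels per sample are given for called members: up to 10 with the largest differences in a mean, up to 5 in a single tissue or organ, and up to 10 with the largest range between tumour types, and further members were added after their values were seen. Cxcl3, Ccl21a, Ccl21c, Ccl26 and Ccl27b were not analysed here.

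Alternatives covered the probe set rule, the filter, repeated quantile normalization, the samples in the fit, the normal cells used, a replicate block by the number in the title, a block of neighbouring codes, each sample left out, the upper quartile of the array as covariate, and the fit leaving out 6 arrays of upper quartile under 6. Those 6 were Prom1-positive lung sample 4, liver samples 2 and 3 and stomach samples 2 and 3, and the Prom1-negative stomach sample 2 of code 239. Leaving out the 3 arrays with another tissue's markers was chosen after seeing the data. The same title number did not pair samples: after group means were removed, 7 of 19 same-numbered pairs correlated above 0.1. Positive and negative samples with neighbouring codes, which the labels do not call a batch, did so in 10 of 13 pairs (median r 0.32), and 7 of these were the best match of the positive sample.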

Additional observations from a re-analysis of the deposited data

Results flagged for a closer look

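For 24 pairs of a named gene and a group, 1 sample lay far from the rest of its group. That is 13.95% of the pairs tested, and chance gives about 1 in 20, or 8.6 pairs. Groups of 3 samples and of more than 10 were not tested. Of the sorted cells these were positive prostate, lung, intestine and stomach cells and negative uterine cells. Of the tumours they were lymphomas, bronchial adenomas, hepatocellular carcinomas and gastric adenocarcinomas. Liver Prom1-positive sample 2 stood high for Ccl3 (8.26, against 3.59 in the nearest other sample), Ccl7 (7.53, against 3.98), Ccl8 (10, against 3.86) and Cxcl2 (9.79, against 4.18). Of the 2 stomach Prom1-negative samples titled number 2, the one whose array had the lowest upper quartile of all stood high for Ccl11 (4.13), Ccl12 (5.23), Ccl8 (4.44) and Cxcl14 (4.999), and stomach Prom1-negative sample 3 for Cxcl5 (3.85). Uterus Prom1-positive sample 4 was low for Ccl12 (9.74) and Ccl7 (10.22), and uterus Prom1-positive sample 1 high for Cxcl5 (7.70). Of the other sorted cells, liver Prom1-negative sample 2 was high for Cxcl10 (9.55), lung Prom1-negative sample 1 low for Ccl4 (7.96), lung Prom1-negative sample 7 low for Ccl7 (4.996) and intestine Prom1-negative sample 5 high for Ccl7 (3.66).

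Among tumours, squamous carcinoma 6 was high for all 3 interferon-induced ligands, Cxcl9 (8.47), Cxcl10 (6.10) and Cxcl11 (5.05). Prostatic adenocarcinoma 3 was high for Cxcl9 (8.52) and Cxcl11 (5.71). Uterine adenocarcinoma 5 was high for Ccl3 (8.88) and Ccl4 (7.71), and uterine adenocarcinoma 8 low for Cxcl1 (5.39).

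The difference between positive and negative cells varied with the tissue, by limma's interaction test, for Ccl21b (adjusted p = 5.79e-07), Ccl5 (4.02e-06), Ccl24 (1.08e-05), Ccl11 (5.96e-05), Ccl12 (6.06e-05), Cxcl13 (0.000224), Cxcl15 (0.000864), Cxcl9 (0.00134), Ccl4 (0.00338), Ccl7 (0.00514) and Ccl3 (0.0105). The largest were in prostate for Ccl21b and Ccl11, in liver for Ccl5, in lung for Ccl24 and in uterus for Ccl12. The difference between tumours and normal cells varied with the organ for the chemokines of the CC family Ccl4 (adjusted p = 2.36e-24), Ccl2 (6.83e-24), Ccl7 (2.95e-21), Ccl6 (8.67e-17), Ccl3 (4.61e-14), Ccl9 (1.08e-11) and Ccl24 (2.76e-08). Of the CXC family it varied for Cxcl1 (2.33e-22), Cxcl2 (2.35e-15), Cxcl10 (8.38e-14), Cxcl12 (1.51e-13), Cxcl14 (7.92e-10), Cxcl13 (3.95e-08), Cxcl15 (1.21e-05) and Cxcl5 (0.000214).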

How the results depend on the processing

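The numbers of chemokine genes called stayed within 1.5 times those in the report in 124 of 135 results, counted over all alternatives other than leaving out single samples, and no named gene reversed its direction. The exceptions follow, and their cause was not tested. With the mean of all probe sets of a gene 0 were called in stomach. With quantile normalization repeated 5 were called in lung. Without the arrays with an upper quartile under 6 there were 5 in lung and 0 in stomach. Within 1.5 times, leaving out these arrays also gave 9 in place of 12 for the mean over tissues, and 15 in place of 20 for stomach tumours. With all 117 samples in the fit there were 5 in prostate, 0 in stomach and 9 in uterus. With Prom1-positive cells alone as normal, 5 were called in liver tumours. Blocks of neighbouring sample codes, with a consensus correlation of 0.379, gave 23 calls for the tissue by sort interaction and lost none of the 31 named calls it covered. A replicate block by title number gave 2 calls in lung and 7 in liver, and 11 for the mean over tissues, 6 in prostate, 0 in intestine, 1 in stomach, 13 in uterus and 10 for the interaction, although the numbers did not pair the samples.

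Leaving out each sample in turn gave 11 to 15 calls for the mean over tissues, 4 to 9 in prostate, 3 to 13 in lung, 0 to 1 in intestine, 5 to 16 in liver, 0 to 2 in stomach, 10 to 13 in uterus, 13 to 22 for the interaction and 33 to 33 across tissues. Tumour types gave 31 to 33. Tumours against normal cells gave 25 to 26 in the mean, 17 to 21 in prostate, 18 to 22 in lung, 10 to 13 in liver, 19 to 22 in stomach and 15 to 18 in uterus. For the named calls, 19 of 2857 fits with 1 sample left out lost the call. All of these losses were of sort calls in a single tissue, which had only 7 to 11 such fits per call. Cxcl13 in lung was lost in 5 of 10 and Ccl3 in liver in 3 of 11. Calls in the means, across tumour types and of tumours against normal cells lost none. Cxcl13 in lung was also lost with no filter (adjusted p = 0.0596), with quantile normalization repeated (0.0643), with the upper quartile as a covariate (0.0674), without the arrays under 6 (0.0799) and without the 3 arrays with another tissue's markers (0.0528). With all 117 samples the calls of Cxcl13 in lung (0.251), prostate (0.106) and uterus (0.11), of Cxcl9 in liver (0.0746) and of Cxcl15 in stomach (0.23) were lost. With the replicate block by title number those of Ccl8 in lung (0.0507), Ccl7 in lung (0.0936), and Cxcl13 in lung (0.114) and prostate (0.121) were lost. Cxcl15 in the mean of 6 tissues was lost without the arrays under 6 (0.0538) and with all 117 samples (0.14), and in stomach with the mean of probe sets (0.0831) and without the arrays under 6 (0.565). The limits are the small sorted groups, levels near the array median, tumours and normal cells that were handled differently, and marker genes of other cells that moved with several differences.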

Other observations

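The receptors of these ligands were read from a list in which 18 of 23 genes were measured. In the mean of 6 tissues 6 of 15 tested receptors were lower in Prom1-positive cells and none was higher, against 8.56% of all genes lower and 5.05% higher. The largest falls were those of Cxcr6, the receptor of Cxcl16 on T and NK cells (-1.90, SE 0.22), Ccr9, the receptor of Ccl25 (-1.24, SE 0.19), and Cxcr5, the B cell receptor of Cxcl13 (-0.81, SE 0.21). In intestine, where no ligand was called, Ccr9 was lower in positive cells, at 3.23 to 5.91 against 5.95 to 7.51 in negative cells (-2.40, SE 0.47, limma adjusted p = 0.00494). In liver 11 of 15 receptors were lower in positive cells, against 16.5% of all genes, led by Cxcr6 (-3.97, SE 0.48), Cxcr3 (-3.48, SE 0.41) and Ccr2 (-2.62, SE 0.44). Uterus, where 5.31% of all genes were higher and 5.64% lower, had 3 higher receptors, Cx3cr1 (4.10, SE 0.53), the monocyte receptor Ccr2 (2.47, SE 0.53) and Cxcr3 (1.72, SE 0.50), and 1 lower, the scavenging receptor Ackr3 (-2.28, SE 0.73).

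In lymphomas 10 of 14 receptors were higher than in the other tumour types and 1 was lower, against 24.3% of all genes higher and 22.3% lower, and the largest difference was that of Cxcr5, at 7.26 to 8.77 in lymphomas against 2.39 to 3.84 in the other tumours (4.89, SE 0.18). In gastric adenocarcinomas Ackr3 (4.74, SE 0.46) and Ccr1, the receptor of Ccl6 and Ccl9 in the mouse (4.52, SE 0.58), were higher than in normal stomach cells without overlap. The platelet chemokine Pf4, which the symbol rule leaves out, was at 10.35 to 11.55 in positive and 5.97 to 6.33 in negative uterine cells (4.73, SE 0.99, limma adjusted p = 0.000743).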
